A study of Mus musculus with 8 samples.

Results

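The 9 genes described here encode secreted proteins, the hepatokines and stress hormones Gdf15, Fgf21, Fst, Fgl1, Ahsg, Igfbp2, Angptl4, Inhbe and Inhba. They were taken from the table by gene symbol, and 9 of 9 were found among the 55335 genes of the count table. Hepatokines are hormones that the liver releases into blood. GDF15 is released by stressed cells and lowers appetite through a brainstem receptor, and FGF21 is a fasting and stress hormone that acts through beta-klotho. Follistatin, encoded by Fst, binds and blocks activins, and Inhba and Inhbe encode activin subunits. ANGPTL4 inhibits lipoprotein lipase, FGL1 is an acute-phase protein that can bind the T-cell checkpoint LAG3, fetuin-A (Ahsg) inhibits the insulin receptor, and IGFBP2 binds insulin-like growth factors.

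The livers came from 8 female mice, all fed ethanol by the chronic-plus-binge protocol of the NIAAA, in which time on an ethanol liquid diet are followed by an ethanol gavage. Mice 28, 34, 37 and 39 had a hepatocyte-specific deletion of Ripk1 (Ripk1-hepKO), and mice 29, 32, 40 and 41 were ethanol-fed controls (Ripk1-Con). RIPK1 is a kinase and scaffold of death-receptor signalling, and the question was what its absence from hepatocytes does to the ethanol-fed liver. Neither the deleter line and floxed allele nor the strain and age were given in the sources used here, and no group free of ethanol was analysed here.

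Ripk1 itself did not check the labels. Its level in Ripk1-hepKO mice 28, 34, 37 and 39 was 38.1, 35.8, 33.1 and 23.1 CPM, a count relative to the TMM-scaled size of the library. Controls 29, 32, 40 and 41 had 34.3, 53.6, 27.8 and 34.2 CPM. A count per gene does not show the loss of single exons, and liver cells other than hepatocytes keep the gene, so every direction below rests on the labels. Library totals ran from 28038390 to 67328158 counts. Albumin (Alb) stood at 48465 to 90592 CPM in the 8 livers, and 5 adipose markers were all under 1 CPM. Mouse 28 stood apart, with a mean Spearman correlation with the other libraries of 0.954, against 0.974 to 0.980 for the rest, so the results for the 9 hormone genes are given with it and without it.

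Promoter sequences are shown for 3 of the hormones, because Fgf21, Inhbe and Gdf15 are known targets of the integrated stress response and were all highest in mouse 28. In that response, kinases that sense stress slow translation, and the factors ATF4 and CHOP then act on C/EBP-ATF composite elements. The letters searched, TGATGCAA on both strands, are the core of such an element. The sequences are from RefSeq on GRCm38.p6, minus strand, 5′ to 3′. Capitals mark TTGCATCA, the reverse complement of the letters searched, and in Fgf21 also the E-box CACGTG. In Gdf15 they mark a match to 7 of the 8 letters.
Fgf21, chr7:45615491-45615740: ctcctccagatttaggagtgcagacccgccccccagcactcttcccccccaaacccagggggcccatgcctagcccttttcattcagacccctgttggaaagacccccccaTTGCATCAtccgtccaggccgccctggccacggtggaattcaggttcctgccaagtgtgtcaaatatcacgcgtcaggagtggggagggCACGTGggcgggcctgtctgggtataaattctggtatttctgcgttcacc
Inhbe, chr10:127352011-127352040: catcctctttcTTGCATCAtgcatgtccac
Gdf15, chr8:70632676-70632705: gttctgggcagTGCATCAggggtggggctt

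The match lay 139 to 132 bases before the start of Fgf21 and 181 to 174 bases before the RefSeq start of Inhbe, and the shorter match 238 to 232 bases before that of Gdf15. The Inhbe stretch lies inside the GENCODE gene used for its exon length (127348857 to 127354411), whose start is further upstream. By that annotation the match is not before the start. The table of promoters matched 6 of the 9 hormone genes, the others being Fst, Fgl1 and Angptl4. TGATGCAA stood within the 250 bases before the start in 2 of those 6 (Fgf21 and Inhbe) and in 0.791% of all 32851 windows. The contained 7-letter form TGATGCA stood in 3 of 6, with Gdf15 added, and in 2.68% of windows. CACGTG stood in Fgf21, Gdf15 and Igfbp2 and in 6.02% of windows, and the cyclic-AMP element TGACGTCA in 0 of 6 and 1.55%. A gene was counted if any of its windows matched, while the percentages are of windows, so the shares are not like for like. In Gdf15, CACGTG lay 83 to 78 bases before a different start than TGATGCA. A match is a description of letters and shows no binding.

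No hormone gene passed the test between the genotypes, with mouse 28 or without it. Of the 15234 genes tested with edgeR's quasi-likelihood test, 0% passed an FDR of 0.05, and 0 of the 9 did; the lowest adjusted p of any gene was 0.742. Gdf15 and Fst lay higher at an unadjusted p under 0.05 and Angptl4 lower, which is 2 of 9 higher against 3.86% of all genes, 1 of 9 lower against 2.82%, and 3 of 9 in all against 6.68%. The groups did not overlap for 0 of the 9, against 4.10% of all genes. Of the log2 fold changes 4 were above 0 and 5 below, with a median of -0.10, where the median of all genes was 0.01. Among all 15234 genes, 7886 lay above 0 and 7348 below.

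Without mouse 28 the edgeR test again passed 0% of genes, 15500 being tested. Gdf15 and Angptl4 then had an unadjusted p under 0.05, 2 of 9 against 5.75% of all genes, and the groups did not overlap for 0 of 9, against 6.49%. Of the log2 fold changes 3 were then above 0 and 6 below, with a median of -0.24. Among all 15500 genes, 7856 lay above 0 and 7644 below. The DESeq2 Wald test called 0.237% of genes, but no hormone gene. It gave no p for Fst.

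**Figure D1:**
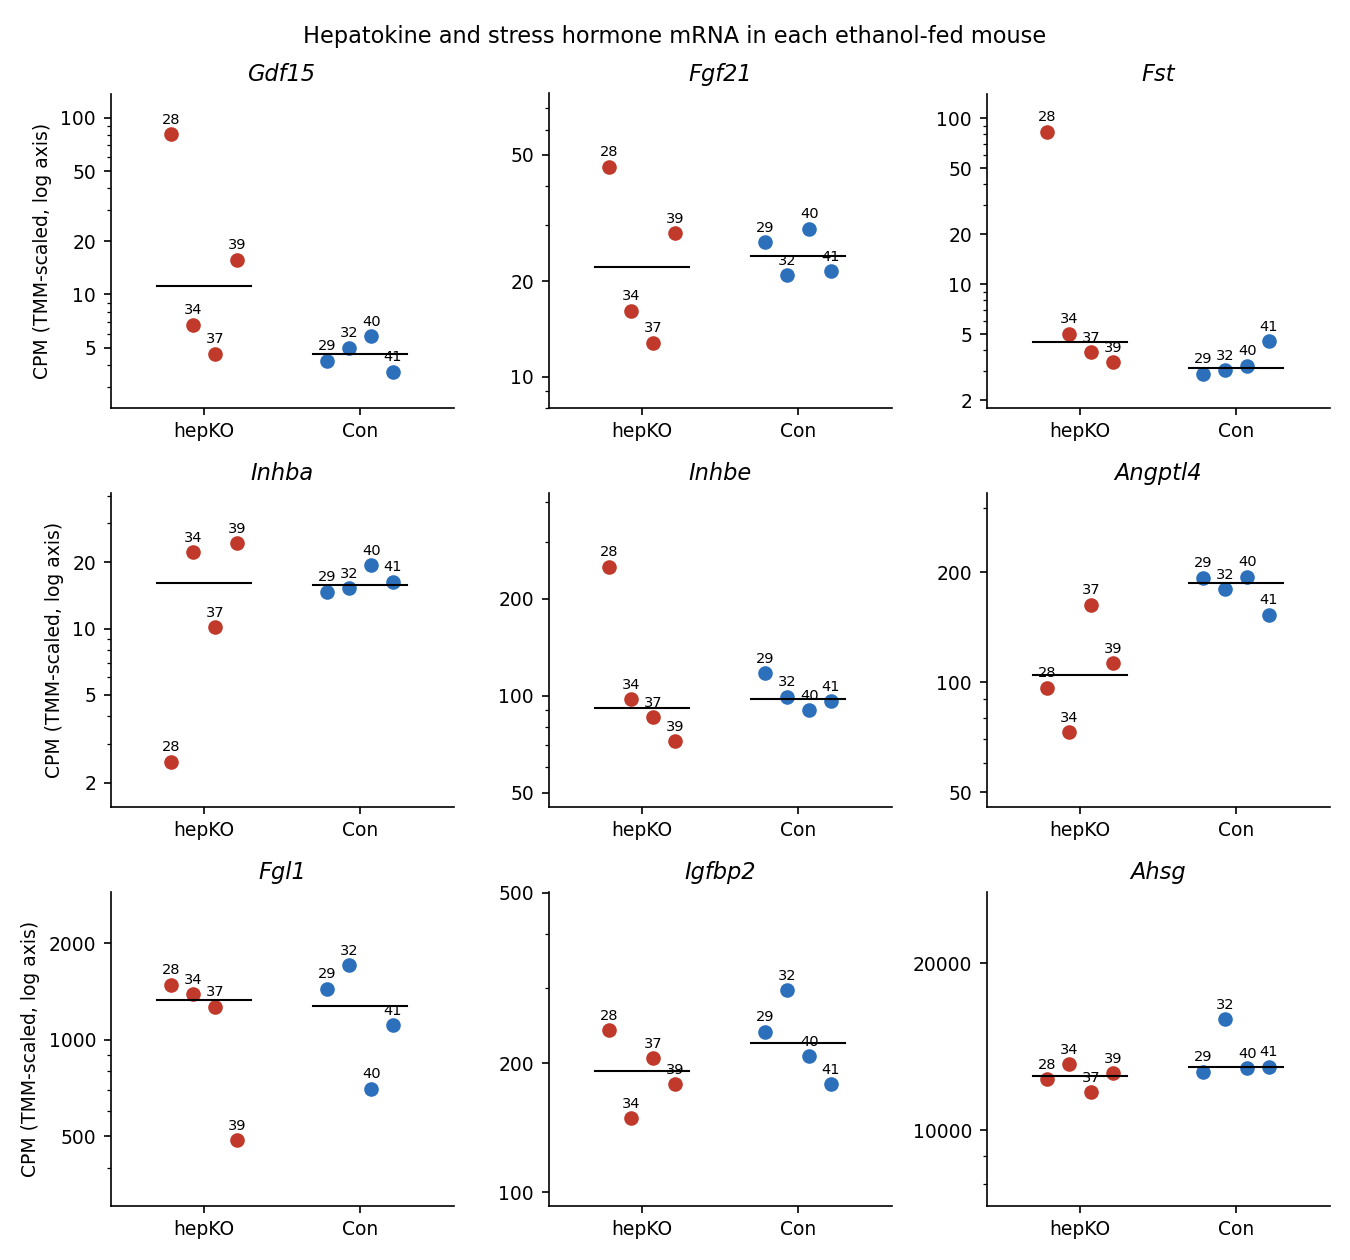
Level of each hormone gene in each mouse, in TMM-scaled CPM on a log axis; points are mice with their numbers, red for Ripk1-hepKO and blue for Ripk1-Con, and bars are group medians. Mouse 28 is the highest point for Gdf15, Fgf21, Fst and Inhbe and the lowest for Inhba, while Angptl4 is lower in Ripk1-hepKO apart from mouse 37.

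Gdf15 (ENSMUSG00000038508, chromosome 8, 70629393 to 70632456 on GRCm38, minus strand) gave the difference of lowest p in the upward direction among the 9. It stood at 80.9, 6.75, 4.62 and 15.7 CPM in Ripk1-hepKO mice 28, 34, 37 and 39. The controls 29, 32, 40 and 41 stood at 4.22, 4.995, 5.81 and 3.66 CPM. Of the 4 Ripk1-hepKO mice, 3 were above every control, mice 28 and 39 by the most, and mouse 37 lay among the controls. Group means of 27.0 ± 36.2 and 4.67 ± 0.937 CPM (SD, n = 4 each) went with a log2 fold change of 2.53 ± 0.84 (SE; 95% interval 0.62 to 4.45; edgeR unadjusted p = 0.01514, adjusted p = 0.742). Without mouse 28 the Ripk1-hepKO mean was 9.03 ± 5.89 CPM (n = 3) and the log2 fold change 0.96 ± 0.39 (0.07 to 1.85; edgeR unadjusted p = 0.03798, adjusted p = 0.857). The direction was thus shared by mice other than 28, and the size was not. The counts behind these values ran from 148 to 4412. The receptor of GDF15 did not pass the filter on low counts: Gfral had 0 counts in each liver and its partner Ret at most 2.

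Fgf21 (ENSMUSG00000030827, chromosome 7, 45613886 to 45615490, minus strand) showed no genotype difference beyond the spread. It stood at 45.9, 16.2, 12.8 and 28.3 CPM in Ripk1-hepKO mice 28, 34, 37 and 39, against 26.6, 20.9, 29.3 and 21.5 CPM in controls 29, 32, 40 and 41. Mouse 28 was the highest of the 8 and mice 34 and 37 the lowest, and mouse 39 lay within the range of the controls. This gave a log2 fold change of 0.07 ± 0.36 (SE; -0.74 to 0.89; edgeR adjusted p = 0.978), and without mouse 28 it was -0.36 ± 0.26 (-0.96 to 0.24; adjusted p = 0.945).

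Of the 6 measured genes for FGF21's receptors, co-receptor and cleaving protease, 2 lay above 0 and 4 below, and 0 passed the FDR. Klb, the co-receptor beta-klotho, stood at 8.43, 16.8, 18.9 and 20.3 CPM in Ripk1-hepKO and 17.6, 20.3, 32.01 and 19.997 CPM in controls (log2 fold change -0.48, edgeR adjusted p = 0.775). Without mouse 28 that value was -0.27, without control 40 it was -0.25, and without both it was -0.05. Mouse 28, the mouse with the most Fgf21 mRNA, had the least Klb. Fgfr1 stood at 7.28, 6.02, 5.30 and 4.89 CPM against 4.08, 3.75, 2.26 and 3.73 CPM, with every Ripk1-hepKO mouse above every control (log2 fold change 0.76 ± 0.22 SE, edgeR adjusted p = 0.742; 0.64 without mouse 28). It was the 1 of the 6 separated in this way, and 306 of all 15234 genes tested were. Fgfr4, the main FGF receptor of hepatocytes, stood at 25.1 to 34.8 CPM against 29.4 to 39.4 CPM. Fgfr2 and Fgfr3 lay within 0.08 of 0 on the log2 scale and, without mouse 28, at -0.20 and 0.20, and Fap, which cleaves FGF21, was under 1 CPM on average in both groups.

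Among 20 measured genes of the integrated stress response 16 lay above 0, and the median difference was 0.43 on the log2 scale, with 3 of 20 higher at an unadjusted p under 0.05, against 3.86% of all genes, and 0 past the FDR. Mouse 28 was the highest of the 8 in 12 of the 20, against 26.3% of all genes tested. Without that mouse 13 lay above 0 and the median was 0.12, with 1 of 20 higher and 1 of 20 lower at an unadjusted p under 0.05, against 2.70% and 3.05% of all genes. Atf3, a stress-induced transcription factor, stood at 46.7 CPM in mouse 28 and 1.59 to 6.50 in the other 7, and Ddit3, which encodes CHOP, at 55.7 against 7.82 to 26.5. Without mouse 28 their log2 fold changes were 0.26 and -0.03, against 2.14 and 0.80 with it. Mthfd2, of mitochondrial folate metabolism, stood at 7.02, 10.98, 3.20 and 5.05 CPM in Ripk1-hepKO and 1.80, 1.42, 4.38 and 3.25 CPM in controls (log2 fold change 1.28, and 1.25 without mouse 28; edgeR adjusted p = 0.742 and 0.857). Ppp1r15a, which restarts translation, had a log2 fold change of 0.81 that was 0.31 without mouse 28. Slc7a11, the cystine transporter, was at 0.070 to 1.28 CPM. The 8 p53 targets, since p53 also acts on Gdf15, had 6 members above 0, a median of 0.09 (0.07 without mouse 28) and 0 past the FDR.

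Fst (ENSMUSG00000021765, chromosome 13, 114452290 to 114458951, minus strand) was a single-mouse value. It stood at 82.8, 5.02, 3.88 and 3.38 CPM in Ripk1-hepKO mice 28, 34, 37 and 39. The controls 29, 32, 40 and 41 stood at 2.88, 3.04, 3.22 and 4.51 CPM. Mouse 28 was 16.5 times the highest of the other 7, a ratio that ranked 7 among 12513 genes of at least 1 CPM on average, and the remaining Ripk1-hepKO mice overlapped the controls. With all mice the log2 fold change was 2.80 ± 1.07 (SE; 0.39 to 5.22; edgeR unadjusted p = 0.02772, adjusted p = 0.742). Without mouse 28 it was 0.26 ± 0.22 (-0.25 to 0.76; adjusted p = 0.955). Gdf15, by the same measure, was 5.14 times the highest of the others and ranked 39, and 54 genes (0.432%) reached 4 times.

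Inhbe (ENSMUSG00000047492, chromosome 10, 127348857 to 127354411, minus strand) encodes the activin E subunit, which hepatocytes make and which restrains fat breakdown in adipose tissue. It stood at 251, 97.4, 85.7 and 72.3 CPM in Ripk1-hepKO mice 28, 34, 37 and 39, against 118, 99.1, 90.0 and 96.1 CPM in controls 29, 32, 40 and 41. Mouse 28 was 2.14 times the highest of the other 7, while mice 37 and 39 were the lowest of the 8. Between genotypes the log2 fold change was 0.33 ± 0.36 (SE; -0.49 to 1.16; edgeR adjusted p = 0.869), and -0.24 ± 0.13 without mouse 28 (-0.54 to 0.06; adjusted p = 0.915).

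Inhba (ENSMUSG00000041324, chromosome 13, 16011851 to 16031621, plus strand) encodes the subunit of activin A, a form that follistatin neutralises. It stood at 2.49, 22.2, 10.1 and 24.3 CPM in Ripk1-hepKO mice 28, 34, 37 and 39, against 14.7, 15.2, 19.4 and 16.3 CPM in controls 29, 32, 40 and 41. Here mouse 28 was the lowest, the next mouse being 4.06 times higher, and mice 34 and 39 were above every control. The log2 fold change was -0.15 ± 0.55 (SE; -1.40 to 1.10; edgeR adjusted p = 0.968), and 0.21 ± 0.27 without mouse 28 (adjusted p = 0.980).

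Genes on the opposite strand overlap Fst (Gm47040), Ahsg (Gm30505), Inhbe and Inhbc (Gm47200) and Inhba (Gm48444 and B230303A05Rik). The libraries were stranded, but whether the counting used strand was not given, so these genes are uncertain to that extent. In the table Gm47040, Gm47200, Gm48444 and B230303A05Rik held at most 7 counts in any library, and Gm30505 102 to 238, where Ahsg held at least 389754.

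**Figure D2:**
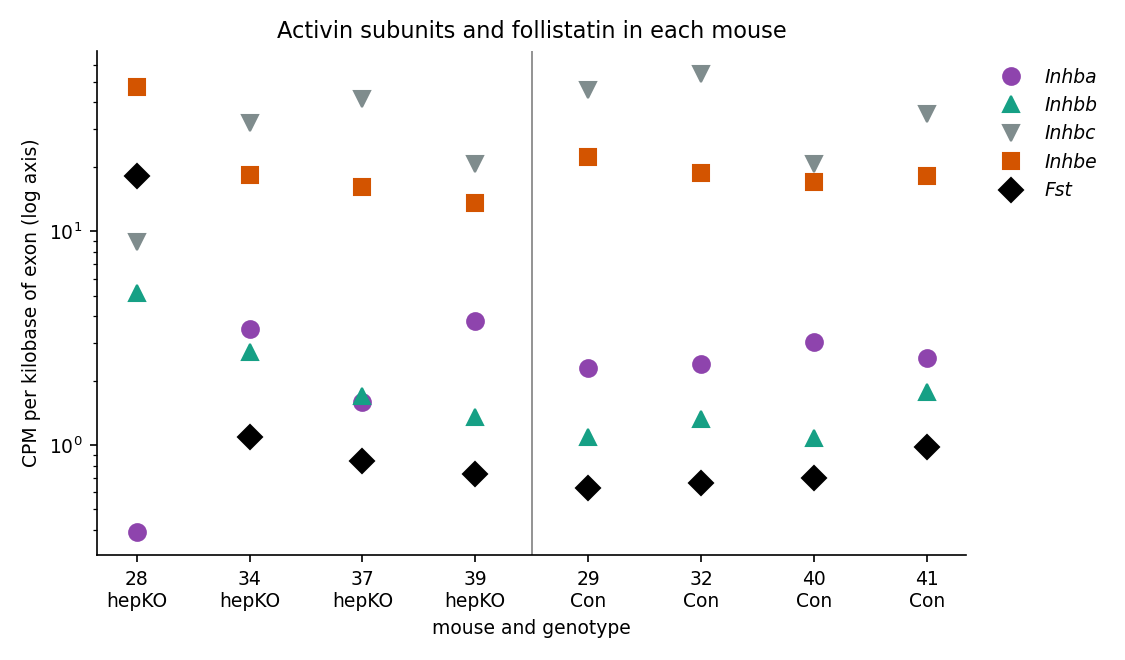
Activin subunit genes and follistatin in each mouse, in CPM per kilobase of exon on a log axis; each symbol is a gene and each column a mouse. By GENCODE exon lengths, Inhbe and Fst are above Inhbc in mouse 28 and Inhba is the lowest. By the same lengths, Inhbc is the highest and Fst the lowest in the other 7 mice.

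The 4 activin subunit genes were set side by side as CPM per kilobase of exon, which allows levels of different genes to be compared as far as the exon lengths hold. Inhbe was divided by the 5319 exon bases of its GENCODE gene, and its RefSeq start lies inside that gene. A shorter transcript would raise its level, so its rank beside Inhbc and the shares below depend on that length. In mouse 28 the levels were 47.2 for Inhbe, 8.87 for Inhbc, 5.14 for Inhbb and 0.390 for Inhba. Inhbe thus made up 76.6% of the 4 subunit mRNAs in that mouse, against 24.2% to 40.6% in the other 7, and Inhbc, its neighbour 1910 bases away on the same strand, 14.4% against 49.6% to 70.9%. Their sum did not set mouse 28 apart, at 61.6 against 39.3 to 76.8. The ratio of Fst to Inhba was 46.3 in mouse 28 and 0.193 to 0.534 in the others, so follistatin mRNA exceeded that of activin A's subunit in mouse 28 and in none of the other 7.

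Inhbb, the activin B subunit, stood at 21.9, 11.6, 7.24 and 5.78 CPM in Ripk1-hepKO and 4.62, 5.61, 4.58 and 7.53 CPM in controls. Its log2 fold change was 1.06 ± 0.40 (SE; edgeR unadjusted p = 0.02628, adjusted p = 0.742), and 0.55 without mouse 28. Hamp, the iron hormone hepcidin, which activin B can induce, stood at 1207, 43.7, 190 and 83.1 CPM against 24.6, 3.09, 46.8 and 52.2 CPM (log2 fold change 3.59, edgeR adjusted p = 0.742; 1.74 and adjusted p = 0.912 without mouse 28). Mouse 28 was the highest of the 8 in both genes. Among the 6 measured activin receptor genes 3 lay above 0 and 0 passed the FDR; Acvr1b, the type I receptor ALK4, stood at 41.2 CPM in mouse 28 and 8.64 to 14.7 in the other 7. It differed by 0.90 on the log2 scale with mouse 28 and by 0.14 without it. Acvr2a was lowest in mouse 28, at 17.6 CPM against 20.4 to 26.9, and Acvr1 and Acvr2b had log2 fold changes of 0.10 and -0.04, and of 0.03 and 0.05 without mouse 28.

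Of 7 genes of the SMAD2/3 branch that activins and TGF-beta share, 3 lay above 0, their median was -0.04 on the log2 scale (-0.17 without mouse 28) and 0 passed the FDR. Tgif1, a co-repressor of SMAD transcription, stood at 46.1 CPM in mouse 28 and 10.1 to 17.8 in the other 7; its log2 fold change was 0.36, and -0.44 without that mouse. Smad2 and a further co-repressor, Ski, had log2 fold changes of -0.17 each. Inha, Fstl3 and the receptor Acvr1c did not pass the filter on low counts.

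Angptl4 (ENSMUSG00000002289, chromosome 17, 33773750 to 33781830, minus strand) had the smallest unadjusted p of the 9. It stood at 96.6, 73.0, 163 and 113 CPM in Ripk1-hepKO mice 28, 34, 37 and 39. The controls 29, 32, 40 and 41 stood at 194, 180, 195 and 153 CPM. In Ripk1-hepKO, 3 mice were below every control, and mouse 37 overlapped control 41 alone. Group means of 111 ± 38.2 and 180 ± 19.3 CPM (SD, n = 4 each) went with a log2 fold change of -0.69 ± 0.22 (SE; -1.20 to -0.19; edgeR unadjusted p = 0.01185, adjusted p = 0.742), which is 61.8% of the control level with an interval of 43.7% to 87.5%. Without mouse 28 the value was -0.63 ± 0.24 (-1.18 to -0.08; edgeR unadjusted p = 0.02952, adjusted p = 0.857). It lay below 0 in all 18 alternative analyses, between -0.93 and -0.53.

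Angptl4 is a target of PPAR-alpha, the fatty acid sensor of the fasted liver. Of the 14 measured genes of the PPAR-alpha and fasting list, 10 lay below 0 with a median of -0.49. Of the 14, 9 were lower at an unadjusted p under 0.05, against 2.82% of all genes, and 0 passed the FDR. Without mouse 28 all 14 lay below 0, with a median of -0.76, and 10 of 14 were lower at an unadjusted p under 0.05, against 3.05%. For 6 of the 14 every Ripk1-hepKO mouse was below every control, against 2.09% of all genes, and for 9 of 14 without mouse 28, against 3.18%. The list was chosen with earlier results of these data known, so these shares describe it and do not test it. Cyp4a14, a fatty acid hydroxylase, stood at 767, 720, 1169 and 595 CPM in Ripk1-hepKO and 1999, 1792, 1438 and 1360 CPM in controls, and mouse 37 was the nearest to the controls in this gene, in Cyp4a10, in Acadm and in Angptl4. The log2 fold changes were -1.02 for Cyp4a14, -0.91 for Cyp4a10 and -0.43 for Acadm, which oxidises medium-chain fatty acids (edgeR adjusted p = 0.742 each). Without mouse 28 they were -0.99, -0.81 and -0.38 (edgeR adjusted p = 0.822, 0.780 and 0.857). DESeq2 called Cyp4a10 and Cyp4a14 (adjusted p = 0.026 each) and gave Angptl4 an adjusted p of 0.299. Close paralogs of the Cyp4a cluster make the split of their reads uncertain.

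Mouse 28 was the highest of the 8 in 5 of the 14 genes of that list, against 26.3% of all genes tested. Pdk4, the fasting brake on glucose oxidation, stood at 417 CPM in that liver and between 8.08 and 117 elsewhere, and Plin2, the coat protein of lipid droplets, at 2633 against 435 to 1137. These 2 were named after their values were seen. Angptl4 in the same mouse was at 96.6 CPM, inside the Ripk1-hepKO range. The log2 fold change of Plin2 was 0.02 with all mice and -0.93 without mouse 28 (edgeR adjusted p = 0.997 and 0.780), and that of Pdk4 was 0.51 and -1.49 (adjusted p = 0.929 and 0.885).

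The 9 other genes of lipoprotein lipase control had 6 members above 0, a median of 0.12 (0.15 without mouse 28) and 0 past the FDR. Apoa5, which favours lipase action, stood at 1946 CPM in mouse 28 and 552 to 986 in the other 7. It differed by 0.40 on the log2 scale with mouse 28 and by -0.05 without it. Lpl, the lipase itself, differed by 0.41 on the log2 scale (edgeR adjusted p = 0.832), by 0.18 without mouse 28 and by 0.15 without control 40. Gpihbp1, which holds the lipase on capillary walls, differed by 0.22 (edgeR adjusted p = 0.871; 0.17 without mouse 28).

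**Figure D3:**
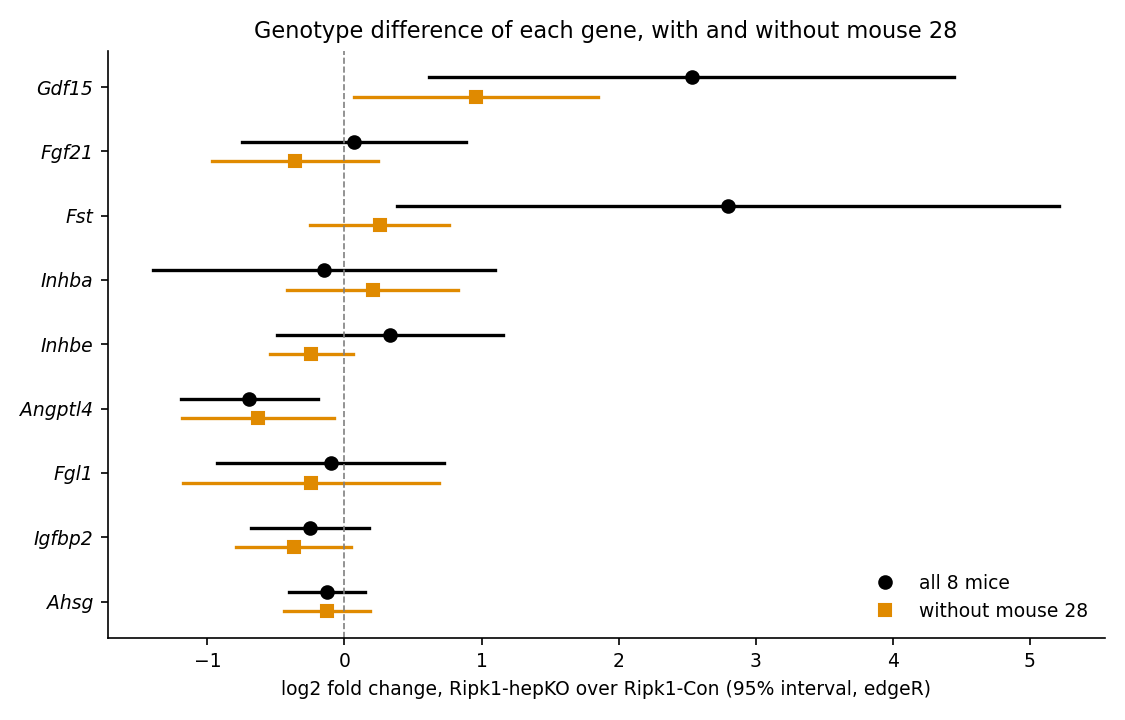
Genotype difference of the 9 genes as log2 fold change, Ripk1-hepKO over Ripk1-Con, with 95% intervals from edgeR; black circles are all 8 mice and orange squares the 7 without mouse 28. Fst moves from 2.80 to 0.26 and Gdf15 from 2.53 to 0.96, while Angptl4 stays near -0.69 and -0.63.

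Fgl1 (ENSMUSG00000031594, chromosome 8, 41191434 to 41215156, minus strand) varied among mice of both genotypes. It stood at 1487, 1389, 1268 and 487 CPM in Ripk1-hepKO mice 28, 34, 37 and 39, against 1443, 1708, 705 and 1110 CPM in controls 29, 32, 40 and 41. Mouse 39 was the lowest and mouse 40 the next, so the low mice came from different groups. The log2 fold change was -0.10 ± 0.37 (SE; -0.93 to 0.73; edgeR adjusted p = 0.968), and -0.24 ± 0.41 without mouse 28 (adjusted p = 0.990). Its sign turned without mouse 39 (0.16) or control 32 (0.09). Lag3, its checkpoint receptor, stood at 0.29 to 0.49 CPM.

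The acute-phase genes, to which Fgl1 belongs by function, had 12 of 14 members above 0, a median of 0.35 and 0 past the FDR; without mouse 28, 4 lay above 0 and the median was -0.11. Orm2, an acute-phase glycoprotein, stood at 958, 367, 630 and 67.8 CPM in Ripk1-hepKO and 256, 491, 55.5 and 209 CPM in controls. Mice 39 and 40 were the lowest in Orm2 as in Fgl1. Mouse 28 was the highest of the 8 in 11 of the 14 acute-phase genes, against 26.3% of all genes tested, whereas in Fgl1 it was inside the range. Il6ra, the interleukin-6 receptor, was lowest in mouse 28, at 23.6 CPM against 60.5 to 111 in the others.

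Ahsg (ENSMUSG00000022868, chromosome 16, 22891277 to 22899449, plus strand) was the most abundant and one of the least variable of the 9. It stood at 12375, 13174, 11702 and 12675 CPM in Ripk1-hepKO and 12761, 15860, 12943 and 13029 CPM in controls. The groups overlapped, with mouse 32 above the rest. The log2 fold change was -0.13 ± 0.12 (SE; -0.41 to 0.15; edgeR adjusted p = 0.846), and -0.12 ± 0.14 without mouse 28 (adjusted p = 0.969). Insr, the receptor that fetuin-A inhibits, stood at 114 to 150 CPM, a log2 difference of -0.05 (edgeR adjusted p = 0.945).

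Igfbp2 (ENSMUSG00000039323, chromosome 1, 72824503 to 72852474, plus strand) stood at 238, 149, 205 and 179 CPM in Ripk1-hepKO mice 28, 34, 37 and 39, against 237, 296, 207 and 179 CPM in controls 29, 32, 40 and 41. Mouse 34 was the lowest and mouse 32 the highest, and the groups overlapped. The log2 fold change was -0.25 ± 0.19 (SE; -0.68 to 0.18; edgeR adjusted p = 0.809), and -0.37 ± 0.18 without mouse 28 (-0.79 to 0.05; adjusted p = 0.894). Its relative Igfbp1, which insulin represses, stood at 2122 CPM in mouse 28 and 141 to 573 in the other 7, with a log2 fold change of 0.92 that was -0.90 without that mouse. Of the 9 measured genes of the IGF axis 6 lay above 0, with a median of 0.19 (0.04 without mouse 28) and 0 past the FDR. Igf1 stood at 724 CPM in mouse 28 and 286 to 444 in the others, its log2 fold change being 0.39 with that mouse and 0.07 without it. Igf1r was higher in every Ripk1-hepKO mouse than in any control (2.90 to 3.89 against 2.13 to 2.74 CPM; log2 fold change 0.49, edgeR adjusted p = 0.742; 0.42 without mouse 28). It was the 1 of the 9 separated upward in this way, as were 306 of all 15234 genes tested.

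Of 12 other hepatokines, 5 lay above 0, with a median of -0.02 (0.01 without mouse 28) and 0 past the FDR. Hamp is given above. Rbp4, the retinol carrier, stood at 1586 to 2316 CPM in Ripk1-hepKO and 1992 to 2765 CPM in controls, and Manf, a secreted protein of the stressed endoplasmic reticulum, differed by 0.23 on the log2 scale (edgeR adjusted p = 0.819), and by 0.09 without mouse 28.

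**Figure D4:**
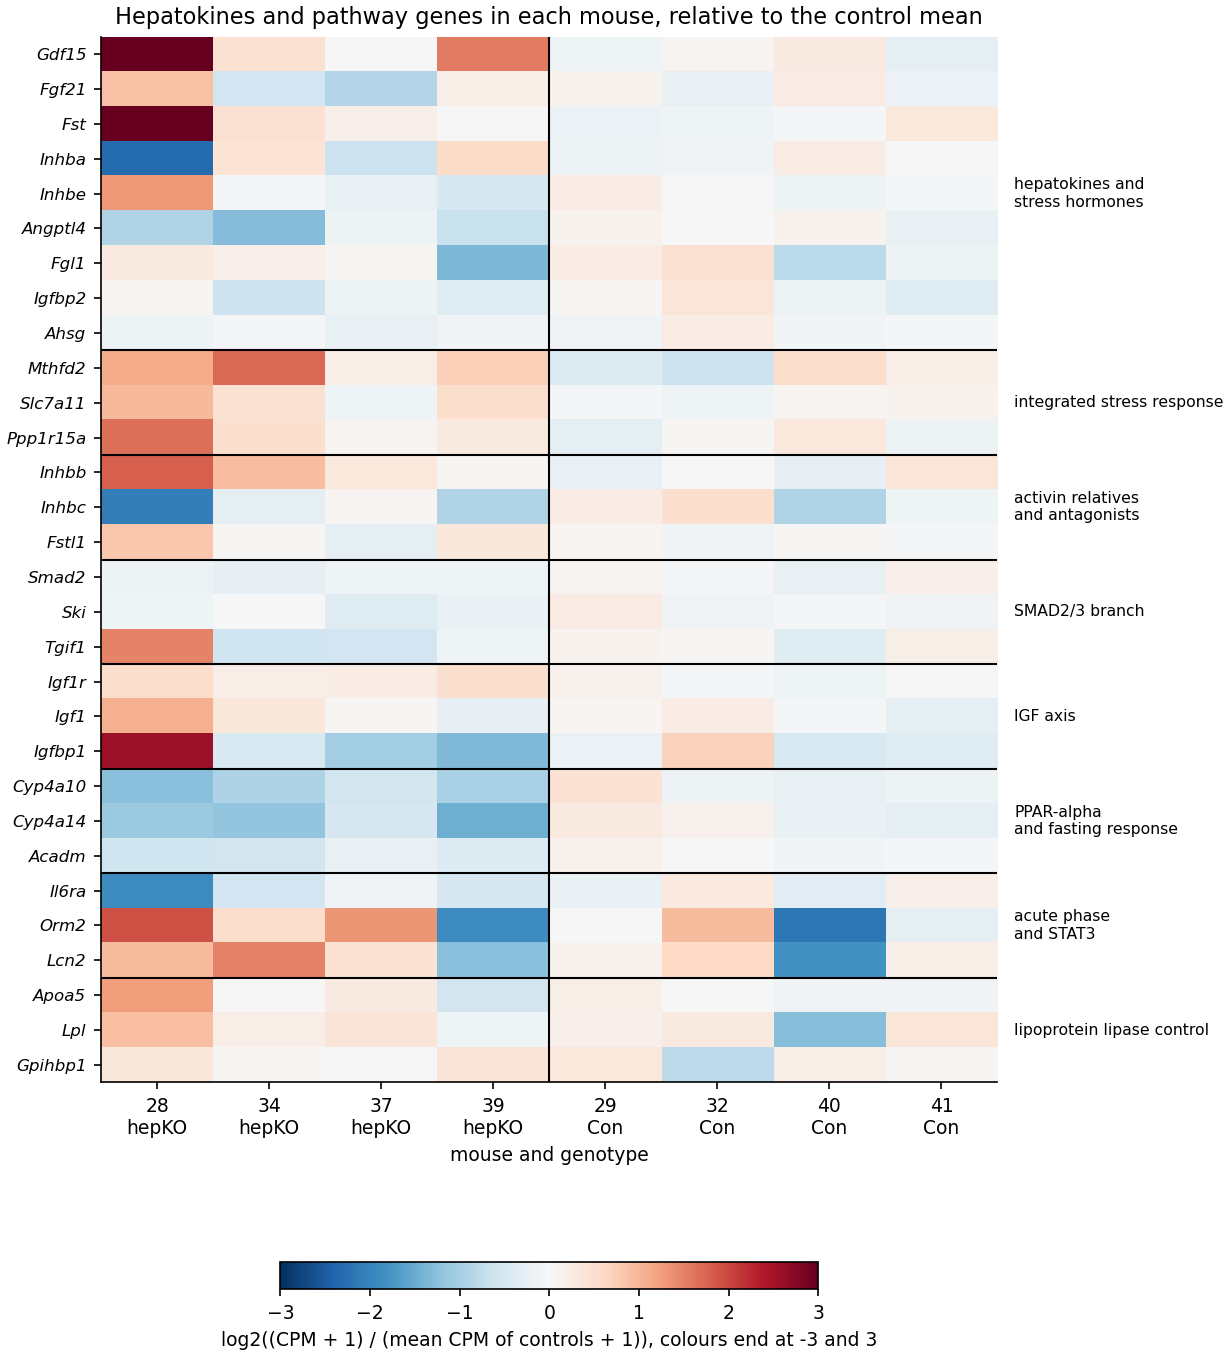
Level of each hormone gene and of pathway genes named by p in each mouse (columns), as log2 of CPM + 1 relative to the control mean; red is above and blue below, and colours end at -3 and 3. Column 28 holds the strongest colours in Gdf15, Fst, Inhba and Igfbp1, while the rows Cyp4a10, Cyp4a14 and Acadm are blue in all 4 Ripk1-hepKO mice.

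The 9 genes differed widely in level. In controls the mean per kilobase of exon was 6212 CPM for Ahsg, 280 for Fgl1, 124 for Igfbp2, 50.9 for Angptl4, 25.8 for Fgf21, 18.9 for Inhbe, 2.57 for Inhba, 2.52 for Gdf15 and 0.744 for Fst. The control ranges overlapped between the neighbours Fgl1 and Igfbp2, Fgf21 and Inhbe, and Inhba and Gdf15, and not between the other neighbours. The place of Inhbe depends on its exon length, as said above. In mouse 28 this order changed, with Fgf21 at 48.3, Inhbe at 47.2, Gdf15 at 43.7 and Fst at 18.0, Angptl4 at 27.3 and Inhba at 0.390 per kilobase.

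Mice of the control group were alike in most of the 9, with coefficients of variation of 10.7% (Angptl4) to 34.9% (Fgl1). In Ripk1-hepKO the coefficient was 4.93% for Ahsg and 166% for Fst. It was larger in Ripk1-hepKO than in controls for 7 of the 9, against 62.6% of the 12513 genes of at least 1 CPM on average, and without mouse 28 for 6 of the 9, against 41.8%. No test of spread was made. Mouse 28 was the highest of the 8 in 4 of the 9 and the lowest in 1, against 26.3% and 26.7% of all genes tested.

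Genes whose pattern over the mice was most like each hormone were found by Pearson's r of log2(CPM + 1), among 11530 genes; each r is among the highest of that many and a description, and all points share their libraries. For Angptl4 these were Dhrs4 (r = 0.978 over 8 mice), Pex11a (0.976), which acts in peroxisome division, and Dcaf6 (0.962), and over 7 mice Pex11a (0.986), the acyl-CoA thioesterase Acot1 (0.976) and Dhrs4 (0.974). For Fgl1 they included the inter-alpha-inhibitor chain Itih4 (0.975) and kininogen (Kng1, 0.965). Without mouse 28 these were at 0.983 and 0.963. These likenesses therefore did not rest on mouse 28.

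Those of Fst were lower without mouse 28. Tspan9 (0.997), Adamts4 (0.991) and Il33 (0.988), an alarmin, led for Fst, and at 7 mice their r was 0.902, 0.594 and 0.176. Myl6, D3Ertd254e and Cdca3 (0.984 each) led for Gdf15, with 0.904 to 0.911 over 7 mice, where Serpinb9 (0.979) came top. Gpat3 (0.993; 0.962 over 7 mice), an enzyme of triglyceride synthesis, led for Inhbe, followed by Bin3 and Efna1. Eps8l1 (0.994; 0.970 over 7 mice) led for Inhba, with Nsd2 (0.979) also near it, and Stat5b (0.960; 0.947), Cnot6l and Zfp326 for Fgf21. Smarca5 (0.975), Phf3 and Lars2 led for Ahsg and Ap3s1-ps1 (0.981), Siah2 and Bcap31 for Igfbp2.

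In bulk liver, fewer cells of a type and less RNA per cell cannot be told apart. The 8 hepatocyte markers summed to 69789 to 88096 CPM in Ripk1-hepKO and 93470 to 110359 in controls, with no overlap, and mouse 28 had the lowest sum. Alb made up most of it, at 48465 CPM in mouse 28 and 63058 to 90592 in the other 7. The 7 other markers summed to 21325 CPM in mouse 28, inside the range of 15323 to 22599 in the rest. Of these 7, Tat and Pck1 were highest in mouse 28 (3860 and 4587 CPM). Cps1 and Serpina1c were lowest there (2112 and 2424 CPM), and Apoa1, Ttr and Hnf4a were inside the range. As mean log2(CPM + 1), mouse 28 stood at 11.90, against 11.38 to 11.77 in the other Ripk1-hepKO mice and 11.75 to 12.09 in controls. Most of the 9 hormones are made by hepatocytes, while Inhba and Fst can come from other cells. The 8 stellate and fibroblast markers summed to 420 CPM in mouse 28 and 249 to 332 in the other 7. The corresponding sums were 189 against 38.6 to 133 for 8 monocyte and macrophage markers and 47.6 against 3.62 to 33.4 for 7 neutrophil markers. For 6 cholangiocyte markers they were 62.8 against 13.5 to 35.6. Spp1, which is also in the monocyte and macrophage list, made up most of the cholangiocyte sum, at 53.7 CPM in mouse 28 and 11.2 to 31.9 in the other 7. Mouse 28 was not the highest in every list. Its sum lay inside the range of the others for Kupffer cells (278 CPM, against 69.8 to 317). The same held for endothelial cells (171 CPM, against 102 to 206) and B cells. Its sums for erythroid cells (190 CPM, against 200 to 635) and for T and NK cells were the lowest.

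No marker list passed a test between the genotypes of its mean log2(CPM + 1) (12 lists, exact two-sided permutation test, adjusted p of 0.842 to 0.914). With 70 possible assignments of the mice, a single list could not pass after adjustment over 12 lists. The test therefore cannot decide whether cell makeup differed. The largest differences were 0.49 for neutrophils, 0.39 for stellate cells, 0.37 for monocytes and macrophages and -0.37 for erythroid cells. Without mouse 28 they were 0.34, 0.22, 0.12 and -0.23. The part of cell makeup in the values of Gdf15, Fst and the other hormones in mouse 28 was not tested.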

How the data were processed

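Polyadenylated liver RNA of 8 mice was sequenced from strand-specific (dUTP) libraries as paired reads of 150 bp, per the labels' protocols. Raw counts for Ensembl genes were deposited by the authors in 1 table, with no scaling. Named in the submitters' processing notes are the build GRCm38.p6 and the tools STAR 2.5.2b, FastQC 0.11.5, DESeq2 1.38.1 and StringTie 2.2.1. Neither the annotation release nor the counting tool or its use of strand was given in these sources. Symbols came from GENCODE M21 (55154 of 55335 IDs matched, 181 did not); Ddit3, with 2 IDs, was read from the longer gene.

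The test was edgeR 4.0.16 (R 4.3.3): filterByExpr by genotype, TMM, a robust quasi-likelihood fit of genotype over all 8 mice, and Benjamini-Hochberg adjustment over 15234 genes at an FDR of 0.05. The fit was also run on simulated counts with a common dispersion and no outlying library, which does not cover a mouse like 28. The common biological coefficient of variation was 0.292. Each mouse is an independent animal, and p-values measure the spread between these mice. Levels are TMM-scaled CPM, and fold changes divide Ripk1-hepKO by Ripk1-Con. Alternatives were other scalings and filters, DESeq2 1.42.0, limma 3.58.1 voom with and without quality weights, edgeR with its robust option off, and the fit without each mouse in turn and without mice 28 and 40 together. For the marker lists, leaving out mouse 28, alone or with mouse 40, was chosen after seeing the data. The members and gene lists were chosen with earlier results of these data known, so their counts beside the shares of all genes are descriptions and no test. Named are all 9 genes, measured receptors, up to 3 genes of smallest p per pathway list and the 3 most alike per hormone; Atf3, Ddit3, Pdk4 and Plin2 were added after their values were seen. Some genes that the rule names are not reported here, and list counts leave them out. The reads carry no molecular identifiers, so counting precision may be overstated, which was not tested.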

Additional observations from a re-analysis of the deposited data

Results flagged for a closer look

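Among 18 groups of 4 mice (9 genes, 2 genotypes) 3 held a mouse far from the rest of its group on the log2 scale by Dixon's test, where chance flags about 1 in 20. Fst in Ripk1-hepKO mouse 28 stood at 82.8 CPM, with a gap of 0.876 of the group's range. Fgl1 in Ripk1-hepKO mouse 39 stood at 487 CPM (0.857), and Ahsg in Ripk1-Con mouse 32 at 15860 CPM (0.904). The Gdf15 value of mouse 28 did not pass this test, since mouse 39 was also high.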

How the results depend on the processing

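The direction of Gdf15, Fst, Ahsg, Igfbp2 and Angptl4 was the same in 18 of 18 alternatives, with log2 ranges of 0.96 to 2.89, 0.23 to 3.17, -0.16 to -0.05, -0.42 to -0.11 and -0.93 to -0.53; no hormone gene passed the FDR in any. Genes past the FDR numbered 36 with DESeq2 and 0 in each other setting; unadjusted p under 0.05 was reached by 633 genes without mouse 29, against 1017. Leaving out 1 mouse gave -0.36 to 0.30 for Fgf21, -0.29 to 0.16 for Fgl1, -0.24 to 0.53 for Inhbe and -0.50 to 0.21 for Inhba. The reversals came without mouse 28 for Fgf21, Inhbe and Inhba, and without mouse 32 (0.09) or 39 (0.16) for Fgl1. With limma voom Fgf21 was -0.0498. With quality weights Fgf21 was -0.25, Inhbe -0.16, Inhba 0.0461, Tgif1 -0.37, Apoa5 -0.0266 and Igfbp1 -0.54. Without mice 28 and 40 together the values were -0.27 for Fgf21, -0.29 for Inhbe, 0.29 for Inhba, -0.0469 for Acvr1, -0.55 for Tgif1, -0.0792 for Apoa5, -0.0909 for Lpl and -1.03 for Igfbp1. The marker differences were then -0.16 for Kupffer cells, -0.10 for monocytes and -0.10 for cholangiocytes, the last at -0.0036 without mouse 28 alone. Leaving out 1 mouse also turned Fgfr2 (-0.20 to 0.0425, without 34 or 37), Fgfr3 (-0.31 to 0.20, without 32 or 39), Lag3 (-0.0728 to 0.17, without 29, 37 or 39), Insr (-0.13 to 0.0108, without 37 or 39), Acvr2b (-0.17 to 0.11, without 28, 29 or 39; 0.00 by library size), Tgif1 (-0.44 to 0.59), Apoa5 (-0.0482 to 0.63) and Igfbp1 (-0.90 to 1.27), these last 3 without mouse 28. The cause was not tested. No paired analysis was possible because no mouse number occurs in both groups. The 95% intervals of Gdf15, Fst, Inhba, Inhbe, Fgf21 and Igfbp2 were narrower without mouse 28 than with it. Those of Fgl1, Ahsg and Angptl4 were wider.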
